A study of Homo sapiens with 2 samples.

Results

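The genes described are 10 enzymes that decide which fatty acids enter membrane phospholipids, namely the long-chain acyl-CoA synthetases ACSL1, ACSL3, ACSL4 and ACSL5 and the lysophospholipid acyltransferases LPCAT1, LPCAT2, LPCAT3, LPCAT4, MBOAT1 and MBOAT2. They were taken by gene symbol, and each symbol matched 1 of the 60616 genes in the deposited tables. The samples are HSC-3 cells, a human line derived from an oral (tongue) squamous cell carcinoma, cultured in DMEM with serum. One group received FIN56 at 1 µM for 48 h and the control group received DMSO at 0.1%, the vehicle, for which the label gives no time. Each condition holds 1 mRNA library of 1 cell line, so no difference below has a replicate check, no p-value is given, and a difference between the cultures other than the treatment cannot be told apart from it.

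Fatty acids must be joined to coenzyme A before they can be placed in a phospholipid, and ACSL enzymes carry out this activation. In the remodelling cycle, phospholipase A2 removes a fatty acid from a phospholipid, and lysophospholipid acyltransferases put another in its place. Polyunsaturated chains in phospholipids are readily peroxidized, which is the reaction that drives ferroptosis, whereas monounsaturated chains resist it. ACSL4 and LPCAT3 are known for handling polyunsaturated chains, and both belong to the ferroptosis signature used in the study. ACSL3, MBOAT1 and MBOAT2 are known for handling monounsaturated chains. FIN56 is a ferroptosis inducer that promotes the loss of GPX4, the enzyme that reduces lipid peroxides.

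The libraries held 70184517 expected counts with DMSO and 73062209 with FIN56. Expected counts are estimates by RSEM, which splits a read among the genes it matches. All 10 members were well covered, with 977 to 14206 expected counts per library. The label of the cells was checked against markers, and all 7 squamous epithelial markers (KRT5, KRT14, KRT17, KRT6A, TP63, EPCAM and CDH1) reached 1 FPKM or more with either treatment. Their FPKM summed to 4479 with DMSO and 4198 with FIN56. KRT5 (2078 and 1647), with the largest difference in FPKM units, and KRT14 (1410 and 1352) were lower with FIN56. KRT17, KRT6A, TP63 and EPCAM were higher with FIN56, and CDH1 was nearly level (43.99 and 43.84). By ratio EPCAM (111.32 and 160.11) differed most of the 7, at 1.44, beside 0.792 for KRT5. The sums were 5.10 and 2.92 for 6 fibroblast markers, 3.90 and 5.31 for 5 immune markers, and 0.10 and 0.11 for 4 endothelial markers. COL1A1 (4.25 and 2.19) made up most of the fibroblast sum and CD14 (3.62 and 5.15) most of the immune sum, and COL1A2, COL3A1, PTPRC, CD3E and PECAM1 were listed at 0 in both. In bulk RNA, fewer cells of a kind and less RNA per cell cannot be told apart.

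LPCAT3, which places polyunsaturated chains such as arachidonate into phosphatidylcholine and phosphatidylethanolamine, was the member that differed most between the conditions. Its level was 29.56 FPKM in the DMSO library and 13.46 FPKM in the FIN56 library, where FPKM is a level per length of transcript and per depth of library. The FPKM ratio of FIN56 over DMSO was 0.455, or -1.13 on the log2 scale. The expected counts behind it were 3889.57 and 1584.57. Scaled by the library totals, they gave a ratio of 0.391 and a 95% counting interval from 0.369 to 0.415. The interval is an exact Clopper-Pearson interval on rounded counts, covers counting error only, and compares these libraries. Of the 14247 genes whose expected counts in the pair of libraries summed to 100 or more, 241 had a lower FPKM ratio than LPCAT3.

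The study used an FPKM fold change of 1.5 as its threshold, and the same size was applied here in both directions. LPCAT3 was the only member at 1/1.5 or less, and 0 of the 10 members reached 1.5. Among all 24454 genes above 0 in both libraries, 14.7% reached 1.5 and 17.3% stood at 1/1.5 or less. Many of those genes rest on few reads, and within the 14247 better covered genes the shares were 5.37% and 8.85%. The median log2 FPKM ratio of the members was 0.13, beside 0.02 over those 14247 genes. By counts, the interval of 9 members lay wholly between 1/1.5 and 1.5, and that of LPCAT3 lay wholly below 1/1.5. The interval lay above 1 for 6 members, below 1 for 3 and included 1 for ACSL5. At this depth such narrow intervals are common, since 36.3% of those 14247 genes had one above 1 and 35.7% had one below 1.

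**Figure D1:**
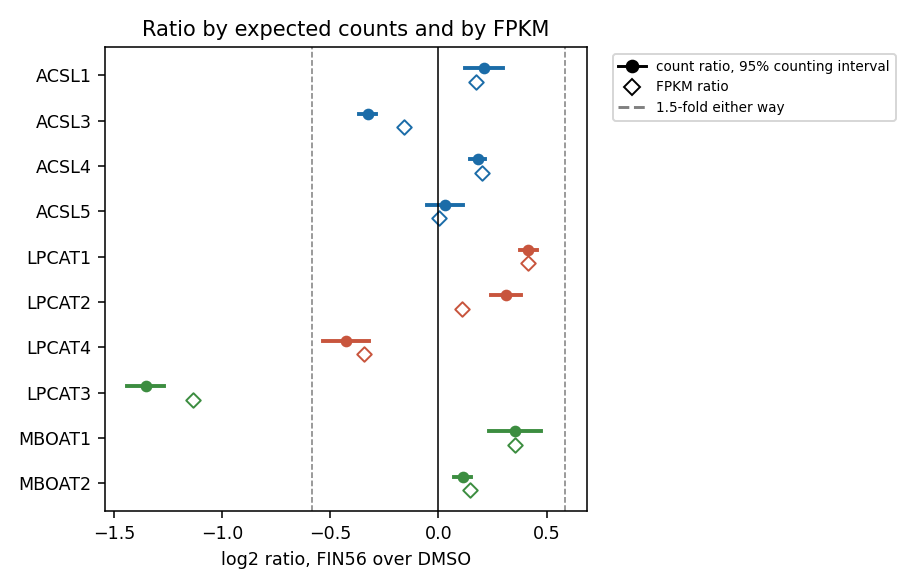
Log2 ratio of FIN56 over DMSO (horizontal axis) for each of the 10 genes, by expected counts scaled by library totals (filled points with 95% counting intervals) and by FPKM (open diamonds), with 1 library per condition. LPCAT3 alone lies beyond the dashed lines that mark 1.5-fold, at -1.35 by counts and -1.13 by FPKM.

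LPCAT3 (ENSG00000111684) occupies bases 6976185 to 7018477 of chromosome 12, minus strand, on GRCh38. In GENCODE release 44 the canonical LPCAT3 mRNA spans 2235 bases in 13 exons, and 1461 of those bases are coding. The opposite strand holds EMG1, a ribosome biogenesis gene, and exons of EMG1 cover 1506 bases of this transcript, 784 of them coding. The expected counts of LPCAT3 were not whole numbers. Those of LPCAT3 and EMG1 added up to 8668 in the DMSO library, whole to within 0.02, and to 5098.95 in the FIN56 library. With C1S, whose annotated span overlaps LPCAT3 without sharing exon bases of its canonical transcript, the FIN56 sum was 8987. Reads of this locus were therefore divided between genes of opposite strands, although the label names a stranded kit.

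EMG1 had 77.21 FPKM with DMSO and 44.85 FPKM with FIN56, a ratio of 0.581. Its expected counts were 4778.43 and 3514.38, a count ratio of 0.706. The summed counts of LPCAT3 and EMG1 do not depend on how reads were divided between those genes, and their ratio was 0.565 with an interval of 0.546 to 0.585. How much of the LPCAT3 ratio belongs to each gene cannot be told apart in the bases they share. The effective length of LPCAT3 implied by its counts and FPKM was 1875 bases with DMSO and 1611 bases with FIN56, a difference of -14.1%. RSEM estimates this length from the mix of transcripts in each library, which is why the FPKM ratio of LPCAT3 is nearer to 1 than its count ratio.

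The RefSeq promoter windows (GRCh38.p14) of LPCAT3, the gene with the largest difference, and of LPCAT1, the member that differed most in the other direction, are shown next. Each runs 5′ to 3′ on the minus strand from 250 bases before the transcript start to 50 after it. Capitals mark the CCAAT box, searched as CCAAT on both strands, and the GC box, searched as GGGCGG on both strands.
LPCAT3, chr12:7018427-7018726: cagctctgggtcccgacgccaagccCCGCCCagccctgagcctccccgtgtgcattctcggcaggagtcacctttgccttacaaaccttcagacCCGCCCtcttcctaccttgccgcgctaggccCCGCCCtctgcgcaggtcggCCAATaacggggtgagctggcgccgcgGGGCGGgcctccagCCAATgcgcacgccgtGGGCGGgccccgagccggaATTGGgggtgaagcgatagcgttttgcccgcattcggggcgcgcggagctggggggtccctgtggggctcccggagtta
LPCAT1, chr5:1523911-1524210: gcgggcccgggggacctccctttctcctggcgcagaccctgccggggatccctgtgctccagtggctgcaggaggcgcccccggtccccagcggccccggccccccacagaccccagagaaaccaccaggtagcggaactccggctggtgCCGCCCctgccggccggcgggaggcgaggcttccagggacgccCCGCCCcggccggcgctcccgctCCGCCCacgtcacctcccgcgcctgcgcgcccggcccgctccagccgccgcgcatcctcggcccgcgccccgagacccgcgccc

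The LPCAT3 window holds 3 CCAAT boxes and 5 GC boxes, and the LPCAT1 window holds 0 and 3. Of 35116 RefSeq promoter windows of this length, 34.6% hold a CCAAT box, 3.26% hold at least 3, 45.0% hold a GC box and 5.14% hold at least 5. The boxes of LPCAT3 begin 105, 64 and 29 bases before the start, the last of them on the opposite strand. A window was found for 8 of the 10 members, with 13 windows in all. Of the 5 ACSL1 windows the first holds 6 GC boxes and no CCAAT box, and the third holds 1 of each. The ACSL5 windows hold neither. The ACSL3 window holds 1 CCAAT box and 3 GC boxes, and those of ACSL4, LPCAT4 and MBOAT2 hold no CCAAT box and 3, 4 and 8 GC boxes. The letters of a sterol regulatory element, TCACNCCAC, were found in 1 of the 13 windows, an internal one of ACSL1, and in 1.13% of all windows. For the element bound by liver X receptors, only an exact direct repeat with 4 bases between its copies was searched. It was in none of the 13 windows and in 7 of all 35116 (0.0199%). So rare a match would be missing from nearly any 13 windows, and inexact copies were not searched. Its absence therefore cannot show whether the LPCAT3 window holds such an element. The motifs were chosen after the values were seen, and their matches describe letters and not bound sites.

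Among the acyl-CoA synthetases, ACSL3 was lower and ACSL4 higher in the FIN56 library, both by less than 1.5-fold. ACSL3, an enzyme of the endoplasmic reticulum and lipid droplets known for activating oleate, had 56.27 FPKM with DMSO and 50.39 FPKM with FIN56. Its expected counts were 12063 and 10007, a count ratio of 0.797 (95% counting interval 0.776 to 0.818), while its FPKM ratio was 0.896. The implied effective length of ACSL3 differed by -11.0% between the libraries, so the size of the ACSL3 difference depends on the unit. ACSL4, which activates arachidonate and adrenate, had 37.67 FPKM with DMSO and 43.25 FPKM with FIN56. Its counts of 12037 and 14206 gave a ratio of 1.13 (1.11 to 1.16), close to its FPKM ratio of 1.15.

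The ratio of ACSL3 to ACSL4 within a library does not depend on the scaling between libraries. By FPKM it was 1.49 with DMSO and 1.17 with FIN56, a change of 0.780. By expected counts, which are not per length, the same ratio was 1.00 and 0.704, a change of 0.703 with an interval of 0.678 to 0.729. ACSL3 thus kept the higher FPKM in both libraries, by a smaller margin with FIN56.

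ACSL1, a synthetase with broad use of long-chain fatty acids, had 8.71 FPKM with DMSO and 9.84 FPKM with FIN56, from 1910 and 2301 counts. Its count ratio was 1.16 (1.09 to 1.23). ACSL5, a synthetase of the mitochondrial outer membrane and endoplasmic reticulum, stood at 10.61 and 10.62 FPKM, and its count ratio of 1.02 had an interval of 0.965 to 1.08. Of all members ACSL5 differed least. Its counts, 2338.17 and 2486.44, were divided with the opposite-strand gene ZDHHC6, which covers 144 bases of its exons, and with the antisense RNA AL157786.1, and the counts of the 3 genes add up to the whole numbers 6467 and 7255.

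Summed over the 4 synthetases, the FPKM values came to 113.26 with DMSO and 114.10 with FIN56, a ratio of 1.01. ACSL3 held 49.7% of this sum with DMSO and 44.2% with FIN56, and ACSL4 held 33.3% and 37.9%. ACSL1 and ACSL5 held between 7.69% and 9.37% in each library. ACSL6, the remaining ACSL gene, had 3 and 4 expected counts and carries no comparison.

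**Figure D2:**
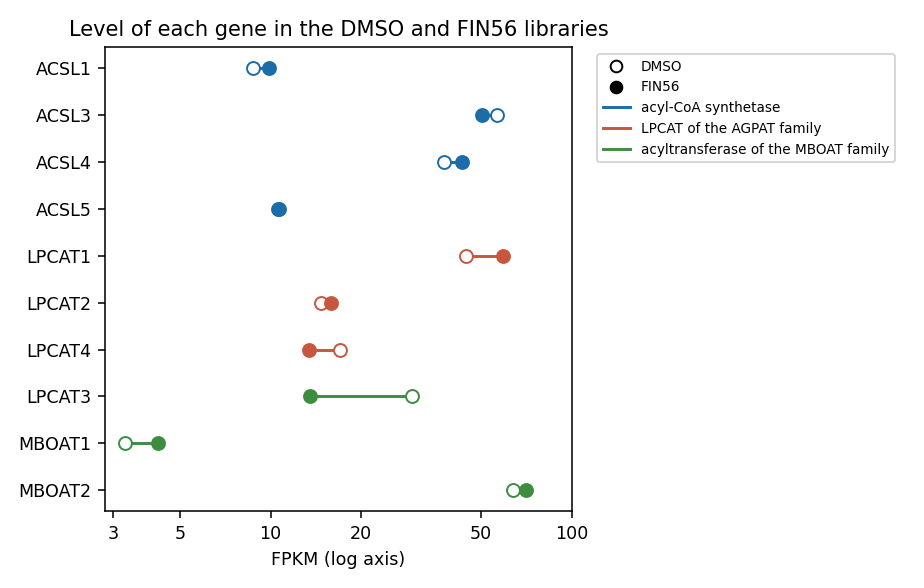
FPKM (horizontal log axis) of each of the 10 genes in the DMSO library (open circles) and the FIN56 library (filled circles), coloured by enzyme family. MBOAT2 is highest in both libraries, at 63.58 and 70.28, MBOAT1 is lowest, at 3.29 and 4.21, and LPCAT3 shows the longest line, from 29.56 to 13.46.

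The LPCAT enzymes other than LPCAT3 belong to the AGPAT family, and LPCAT4 stood on the other side of 1 from LPCAT1 and LPCAT2. LPCAT1, which makes dipalmitoyl phosphatidylcholine and is known from lung surfactant, had 44.46 FPKM with DMSO and 59.31 FPKM with FIN56. Its counts of 9577 and 13300 gave a ratio of 1.33 (1.299 to 1.370), equal to its FPKM ratio to the digits given, and 88.8% of the 14247 genes had a lower FPKM ratio. LPCAT1 lies on the minus strand of chromosome 5 from 1456480 to 1523962, and its counts were whole numbers. LPCAT4, also a lysophospholipid acyltransferase, had 17.05 FPKM with DMSO and 13.45 FPKM with FIN56. Its count ratio was 0.745 (0.692 to 0.802) from 1648 and 1278 counts.

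LPCAT2, which also makes platelet-activating factor in inflammatory cells, had 14.68 FPKM with DMSO and 15.82 FPKM with FIN56, a ratio of 1.08. Its counts were 3032.52 and 3924.28, and their ratio of 1.24 (1.185 to 1.304) was farther from 1. The implied effective length of LPCAT2 was 2943 bases with DMSO and 3395 bases with FIN56, a difference of 15.4%. Over the 14247 genes this difference ran from -14.5% at the 5th percentile to 11.1% at the 95th. LPCAT2 shares reads with AC007336.1, a non-coding RNA on the same strand, and the counts of both add up to 3106 and 3968. LPCAT1 held 58.4% of the summed FPKM of LPCAT1, LPCAT2 and LPCAT4 with DMSO and 67.0% with FIN56.

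MBOAT1 and MBOAT2, relatives of LPCAT3 in the MBOAT family that place oleate into lysophospholipids and are known as suppressors of ferroptosis, were both higher in the FIN56 library by less than 1.5-fold, as were many genes, since 7485 of the 14247 had an FPKM ratio above 1. MBOAT2 had 63.58 FPKM with DMSO and 70.28 FPKM with FIN56, and its count ratio was 1.08 (1.05 to 1.11) from 9506 and 10699 counts. MBOAT1 had 3.29 and 4.21 FPKM, and its count ratio was 1.28 (1.17 to 1.39) from 977 and 1299 counts. MBOAT1 and MBOAT2 therefore stood on the opposite side of 1 from LPCAT3. MBOAT7, a further gene of this family, stood below 1 like LPCAT3, with an FPKM ratio of 0.937.

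Within a library, MBOAT2 was 2.15 times LPCAT3 by FPKM with DMSO and 5.22 times with FIN56, a change of 2.43. By expected counts the change was 2.76, with an interval of 2.59 to 2.95. MBOAT1 was 0.111 times LPCAT3 with DMSO and 0.313 times with FIN56 by FPKM. These changes mostly restate the lower LPCAT3 value, since the FPKM ratios of MBOAT2 and MBOAT1 alone were 1.11 and 1.28. For LPCAT1 over LPCAT3 the change by FPKM was larger, at 2.93. All ratios to LPCAT3 carry the doubt about reads shared by LPCAT3 and EMG1. Summed over the 6 acyltransferases, the FPKM values came to 172.62 with DMSO and 176.53 with FIN56, a ratio of 1.02. LPCAT3 held 17.1% of that sum with DMSO and 7.62% with FIN56, LPCAT1 25.8% and 33.6%, and MBOAT2 36.8% and 39.8%.

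**Figure D3:**
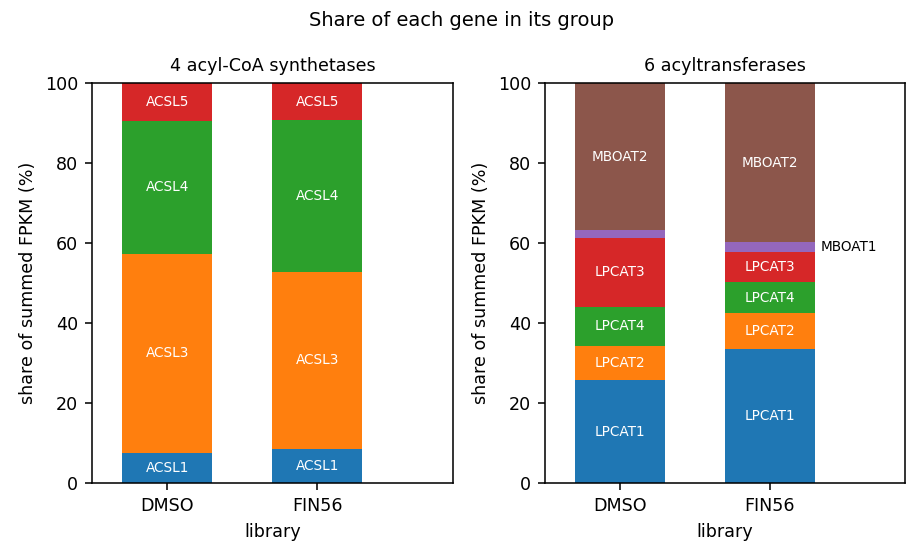
Share of summed FPKM (vertical axis, percent) held by each gene among the 4 acyl-CoA synthetases (left) and the 6 acyltransferases (right) in the DMSO and FIN56 libraries. The LPCAT3 segment is 17.1% with DMSO and 7.62% with FIN56, and the ACSL3 segment 49.7% and 44.2%.

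The order of levels by FPKM in the DMSO library was MBOAT2, ACSL3, LPCAT1, ACSL4, LPCAT3, LPCAT4, LPCAT2, ACSL5, ACSL1 and MBOAT1. In the FIN56 library LPCAT1 stood above ACSL3, and LPCAT3 stood below LPCAT2, level with LPCAT4. With implied lengths taken as fixed, every pair of neighbours in either order differed beyond counting error except LPCAT3 and LPCAT4 in the FIN56 library, at 13.46 and 13.45 FPKM (ratio 1.00, interval 0.929 to 1.08). The spread between cultures is not known from 1 library per condition.

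**Figure D4:**
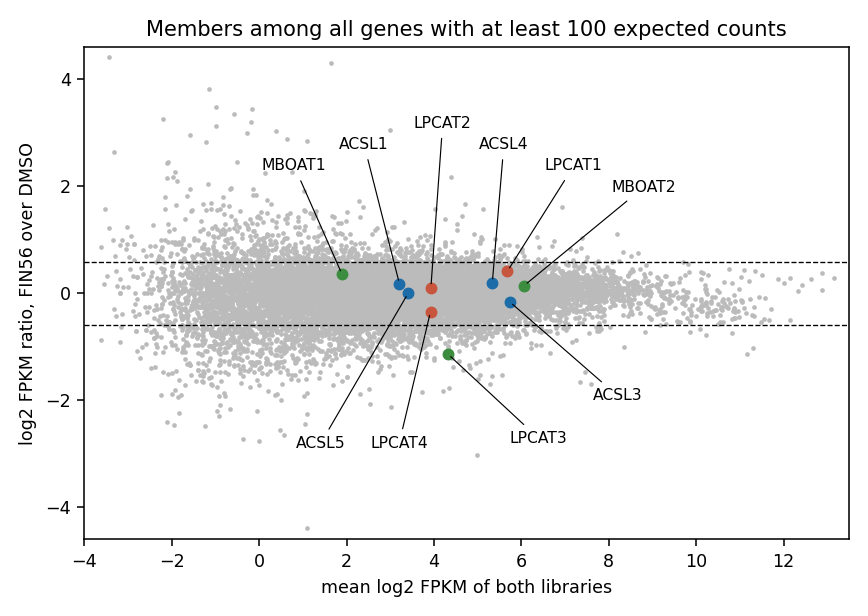
Log2 FPKM ratio of FIN56 over DMSO (vertical axis) against mean log2 FPKM of both libraries (horizontal axis) for the 14247 genes with 100 or more expected counts summed over the libraries (grey), with the 10 members coloured by family. LPCAT3 lies below the lower dashed line (1/1.5), where 8.85% of these genes lie, and the other 9 members lie between the lines.

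Other genes of fatty acid activation and phospholipid remodelling were read from a list of 43 genes, of which 38 had summed counts of 100 or more. Among the 38, 2 reached an FPKM ratio of 1.5 and 3 stood at 1/1.5 or less, beside 5.37% and 8.85% of all such genes. The median log2 FPKM ratio of the 38 was 0.16. In the 9 glycerolipid acyltransferases, which build phosphatidic acid, 8 had enough counts and 0 passed either threshold, with FPKM ratios from 0.802 (AGPAT1) to 1.38 (GPAT4). Of the 4 other remodelling acyltransferases none passed, and MBOAT7, which places arachidonate into phosphatidylinositol, had 65.55 FPKM with DMSO and 61.41 FPKM with FIN56.

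SLC27A1 and SLC27A5, fatty acid transport proteins with acyl-CoA synthetase activity, had FPKM ratios of 0.603 and 0.457. SLC27A1 went from 564 to 339 counts (count ratio 0.577, interval 0.503 to 0.662), and SLC27A5 from 141.82 to 91.68 (0.622, interval 0.473 to 0.815). ACBD4, an acyl-CoA binding protein, had an FPKM ratio of 0.553 from 270.52 and 146 counts. ACOT13, a thioesterase that splits acyl-CoA, had an FPKM ratio of 1.63 and a count ratio of 1.56 (1.42 to 1.71).

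Of the 9 phospholipases A2, 1 reached 1.5. This was PLA2G4B, with an FPKM ratio of 2.85. Its counts of 88.75 and 166.07 gave a lower ratio of 1.79 (1.38 to 2.34), and its implied effective length differed by -37.0%. Its value is uncertain, since it shares sequence with the readthrough gene JMJD7-PLA2G4B, whose FPKM went the other way, from 2.41 to 1.39. PLA2G4A, the cytosolic enzyme that releases arachidonate, had 2.83 FPKM with DMSO and 4.19 FPKM with FIN56. Its FPKM ratio of 1.48 lay just under the threshold and its TPM ratio of 1.51 just above it, and its count ratio had an interval of 1.33 to 1.65.

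**Figure D5:**
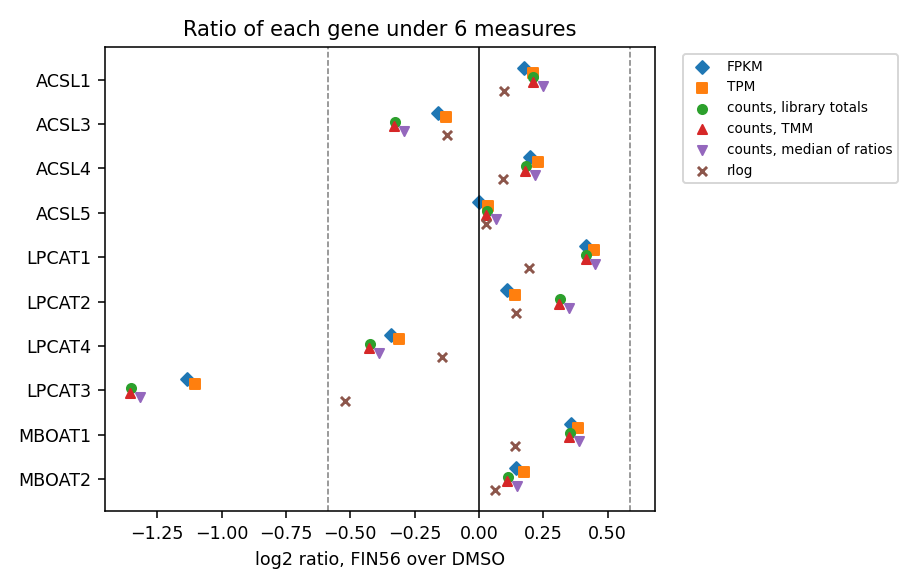
Log2 ratio of FIN56 over DMSO (horizontal axis) of each of the 10 genes by FPKM, TPM, expected counts under 3 scalings, and rlog. No gene changes side of 0 between measures, and LPCAT3 lies left of the dashed 1.5-fold line with every measure except rlog, where it is -0.52.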

How the data were processed

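mRNA of HSC-3 cells was sequenced as 1 library per condition (TruSeq Stranded mRNA kit per the labels). Per the submitters' processing notes and the methods, which describe tumor samples, reads were trimmed with AfterQC, checked with FastQC 0.11.7, aligned with STAR 2.6.1a to GRCh38 and estimated per gene with RSEM 1.3.1. The use of strand in counting is not given in the sources used here. The deposited measures were raw expected counts, which carry no scaling by the authors, and FPKM, which the authors' software divided by depth and by effective length. The authors also gave TPM, in which every library has the same total, and rlog, a shrunken log2 value from DESeq2 1.26.0.

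Ratios of FPKM, FIN56 over DMSO, were computed here for genes above 0 in both libraries, with a threshold of 1.5 either way compared in whole hundredths of FPKM. No test was possible with 1 library per condition. Counting intervals are exact Clopper-Pearson intervals at 95% on rounded expected counts scaled by library totals. Changes of a ratio within a library used the exact conditional odds ratio. Without molecular identifiers reads may be copies of 1 molecule, so the intervals cover counting error only. The depth of 977 to 14206 counts per member and library sets their width. The implied effective length is the expected count divided by FPKM and by the library total. Gene positions came from GENCODE release 44, which holds 99.7% of the deposited identifiers.

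All 10 members are named. Of 43 other pathway genes, those with summed expected counts of 100 or more and past the threshold are named, and others (ACSL6, MBOAT7, PLA2G4A, AGPAT1, GPAT4, and genes at the loci of members) were chosen after their values were seen. The files list TAFAZZIN as TAZ. No gene was named for likeness of pattern, since a pair of libraries gives 1 ratio per gene. The members and lists were chosen with earlier results of these data known. Alternatives were TPM, rlog, counts by library totals, edgeR 4.0.16 TMM or DESeq2 1.42.0 median-of-ratios scaling, minimum FPKM of 1, minimum counts of 100, pseudocounts of 0.1 and 1 FPKM, and a threshold of 2. The interval and thresholds were run on simulated libraries of 14257 genes with counting error only and planted 3-fold changes. The interval assumes such data, so this checked the calculation. It did not cover the spread between cultures or the division of reads between genes. R 4.3.3 and Python 3.11.15 with scipy 1.17.1 were used.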

Additional observations from a re-analysis of the deposited data

How the results depend on the processing

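No paired analysis was possible because there is a single library for each condition, and no replicate could be left out. Each of the 10 members had the same direction by TPM, rlog and counts under 3 scalings. The filters and pseudocounts could not turn a direction, and ACSL5, at 10.61 and 10.62 FPKM, has none beyond counting error. The log2 ratio of LPCAT3 was -1.13 by FPKM, -1.35 by counts with library totals, -1.355 with TMM, -1.32 with median-of-ratios scaling and -0.52 with rlog, which shrinks differences between libraries and left 0 members at 1/1.5 or less. The change in the ratio of ACSL3 to ACSL4 was -0.36 on the log2 scale by FPKM, -0.51 by counts and -0.22 by rlog, and that of MBOAT2 to LPCAT3 was 1.28, 1.47 and 0.59. Counts are not per length, which by construction sets them apart from FPKM.

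Of the 43 other pathway genes, 42 were above 0 in both libraries. By FPKM 4 reached 1.5 and 4 stood at 1/1.5 or less, beside 14.7% and 17.3% of all genes above 0 in both. By TPM the pathway genes past the thresholds were 5 and 4. By counts with library totals or TMM they were 5 and 3, and with median-of-ratios scaling 6 and 3. With rlog both counts were 0. A minimum FPKM of 1 in both libraries left 1 higher gene, and a minimum of 100 counts left 2, since fewer genes are kept. A pseudocount of 0.1 FPKM gave 2 higher genes, a pseudocount of 1 FPKM gave 2 higher and 1 lower, and a threshold of 2 gave 2 higher and 1 lower. Shares over all genes were taken only for the 1.5-fold FPKM calls, with and without the minimum of 100 counts. The counts under the other settings have no such share beside them and are not read as results about these genes. The median of all genes moved by less than 0.1 (log2) between scalings. The counting interval of LPCAT3 is narrow at this depth but does not cover how reads were divided with EMG1.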

Other observations

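LPCAT3 is a known target of liver X receptors, which are nuclear receptors for oxysterols. After the values of LPCAT3 had been seen, 7 genes of this receptor family or known to respond to it were read in the same libraries, so their values are a description only. All 7 had summed counts of 100 or more, 6 had an FPKM ratio of FIN56 over DMSO below 1, beside 6691 of the 14247 genes at this depth, and 3 stood at 1/1.5 or less, beside 8.85% of those genes. SREBF1, a transcription factor of fatty acid synthesis, had 34.84 FPKM with DMSO and 13.42 FPKM with FIN56. PLTP, the phospholipid transfer protein, had 9.78 and 4.33 FPKM, and NR1H3, which encodes a liver X receptor, had 6.67 and 3.68 FPKM. The FPKM ratios of the other genes were 0.858 for ABCA1, 0.745 for ABCG1, 0.780 for MYLIP and 1.21 for SMPDL3A. Whether the values of LPCAT3 and of these genes have a common source was not tested.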
